A study of Caenorhabditis elegans with 2 samples.

Results

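This account describes the FKH-10 binding sites on the X chromosome of Caenorhabditis elegans larvae that lie away from protein-coding gene starts. A site was taken from the optimal list, the set of ChIP-seq peaks kept after a check of reproducibility between replicates, when it was on X and its summit fell outside every window reaching 2000 bp upstream and 500 bp downstream of a protein-coding start. The rule found 370 such peaks, called X far peaks or members here, among 644 optimal peaks on X and 2602 in all. The other peaks were sorted by the same windows into 274 X near, 905 autosomal far and 1053 autosomal near peaks. Within the optimal list, the rule used positions only and no measured value. Distance to starts and position in genes follow from it in part, and base content differs between far and near peaks, as given below.

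FKH-10 is a forkhead protein. Chromatin immunoprecipitation followed by sequencing (ChIP-seq) was done on whole first-stage (L1) larvae, a pool of mixed sex, of strain OP337, which carries wgIs377, an integrated fkh-10 transgene. Its product has a C-terminal tag (TY1, EGFP and FLAG), so the protein measured is the one made from the transgene. The strain carries the unc-119(ed3) mutation, with unc-119 on the transgene. There was 1 group of 2 biological replicates and no second condition, the antibody is labelled only with its target, and the control experiment that the labels name was not analysed here.

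Forkhead proteins bind DNA through a winged-helix domain, and many of them recognise sites built around the letters TAAACA. In XX animals a condensin-like dosage compensation complex loads at recruitment elements on X, spreads along the chromosome and lowers transcription from it. These recruitment elements carry a motif called MEX (motif enriched on X), with the core GCGCAGGG. X also holds many transfer RNA (tRNA) genes, whose internal A and B boxes are bound by the RNA polymerase III factor TFIIIC. None of these features was used to choose the members. Which members are recruitment elements in the literature was not analysed here.

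The 6 members of highest signal, and the highest beside a tRNA gene, are printed first, since the MEX letters described below occur in them. Each is the plus strand of 151 bases centred on the summit, on ce11 (WBcel235), from the RefSeq copy of that assembly. Capitals mark the MEX core GCGCAGGG, read as CCCTGCGC on the other strand, and a variant noticed in these sequences, GCGAAGGG, read as CCCTTCGC on the other strand.
Member 1, beyond W02H3.3 (chrX:11094156-11094306): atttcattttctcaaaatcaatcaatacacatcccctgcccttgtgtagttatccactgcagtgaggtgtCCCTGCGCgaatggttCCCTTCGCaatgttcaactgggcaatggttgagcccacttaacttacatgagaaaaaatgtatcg
Member 2, intron of mom-1 (chrX:6296488-6296638): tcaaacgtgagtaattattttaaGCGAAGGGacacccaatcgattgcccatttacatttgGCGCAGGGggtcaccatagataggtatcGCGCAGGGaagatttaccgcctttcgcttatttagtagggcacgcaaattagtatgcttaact
Member 3, beyond F22H10.2 (chrX:16682038-16682188): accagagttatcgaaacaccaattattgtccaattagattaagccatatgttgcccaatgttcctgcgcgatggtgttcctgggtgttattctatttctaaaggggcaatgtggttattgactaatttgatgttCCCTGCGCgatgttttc
Member 4, upstream of K02D3.1 (chrX:13700771-13700921): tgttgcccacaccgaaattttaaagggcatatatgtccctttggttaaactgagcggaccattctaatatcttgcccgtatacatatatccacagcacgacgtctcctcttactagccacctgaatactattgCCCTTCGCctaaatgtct
Member 5, beyond ZK899.6 (chrX:9465798-9465948): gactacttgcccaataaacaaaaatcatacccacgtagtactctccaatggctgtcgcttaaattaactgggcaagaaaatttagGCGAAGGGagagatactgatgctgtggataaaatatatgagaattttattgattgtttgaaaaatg
Member 6, intron of Y41G9A.17 (chrX:2997041-2997191): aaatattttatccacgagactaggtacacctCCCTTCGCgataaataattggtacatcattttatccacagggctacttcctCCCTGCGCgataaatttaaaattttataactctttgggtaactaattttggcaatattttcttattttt
Member 9, upstream of xol-1 and beside a tRNA gene (chrX:8036266-8036416): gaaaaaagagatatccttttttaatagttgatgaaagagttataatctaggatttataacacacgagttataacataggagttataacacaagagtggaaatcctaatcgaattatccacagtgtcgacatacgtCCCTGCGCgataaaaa

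Of these 7 windows, members 1, 2 and 6 held both the core and the variant, members 3 and 9 the core, and members 4 and 5 the variant. In member 2, in an intron of mom-1, which encodes a Porcupine-like protein needed for the secretion of Wnt signals, the core occurred at 2 places, centred 11 bp to the left and 17 bp to the right of the summit. In member 1 a core was centred 1 bp from the summit. Member 9 lay 4972 bp upstream of the start of xol-1, which sets the sexual fate of the embryo, and 344 bp from a tRNA gene.

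The signal value of a peak is the one the authors deposited, has no stated scale and is compared here within a list. The members covered a signal range of 37.0 to 457, with a median of 65.8 and quartiles at 49.2 and 90.8. Medians were 62.6 in X near, 59.7 in autosomal far and 59.5 in autosomal near peaks. The sets overlapped over most of their range and differed more at the top, where the highest signal was 457 among members, 347 in X near, 221 in autosomal far and 429 in autosomal near peaks. No test between sets of peaks was made, since peaks of 1 experiment are not replicates of a condition. Intervals in the text are exact 95% binomial (Clopper-Pearson) over peaks, cover counting of peaks only, and each main value is set beside those of the replicates. Nothing is called particular to the members on this basis.

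Members were the most frequent set in the top 20 of the whole list, and autosomal near peaks were the most frequent in the top 50 and beyond. Among the 20 peaks of highest signal 11 (55%, 31.5 to 76.9%) were X far, 3 X near, none autosomal far and 6 autosomal near. Each replicate, ranked alone, had 11 (replicate 1) and 9 (replicate 2) X far peaks among its top 20, and again no autosomal far peak. Autosomal near peaks were 6 of the top 20 in replicate 1 and 8 in replicate 2. The share then came down: members were 15 of the top 50, 25 of the top 100, 38 of the top 200 and 168 (16.8%) of the top 1000 optimal peaks. Autosomal near peaks were 23 of the top 50, 41 of the top 100 and 79 of the top 200. Over the whole optimal list they were 370 of 2602 peaks.

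**Figure D1:**
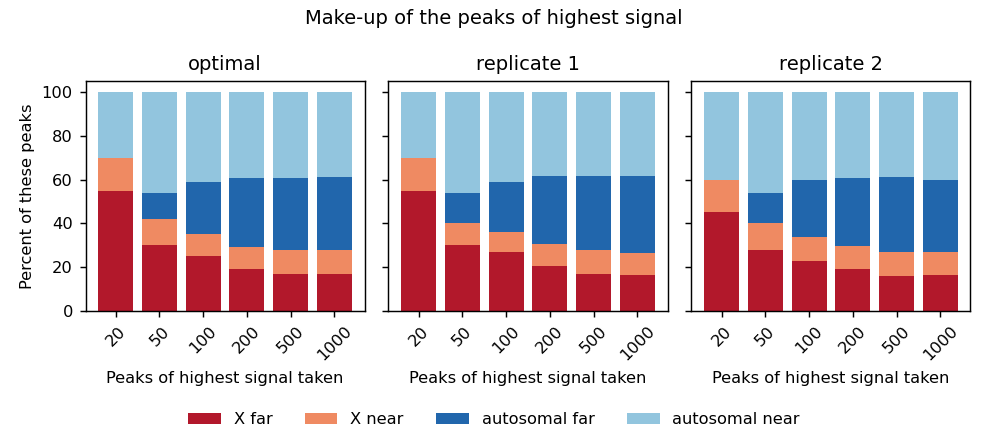
Percent of the 20 to 1000 peaks of highest signal (x axis) that are X far, X near, autosomal far or autosomal near, in the optimal list and in each replicate's own list. X far peaks number 11, 11 and 9 of the top 20 in the 3 panels and make up 16.8%, 16.4% and 16.2% of the top 1000.

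Member 1, beyond the end of W02H3.3, had the highest signal of all 2602 peaks, 457, with 252 in replicate 1 and 207 in replicate 2. Member 2, in mom-1, had 412, with 187 and 227. Member 3, beyond F22H10.2, had 396, with 202 and 192. These 3 ranked within the first 8 of each replicate's list, so both replicates placed them at the very top. Members 4 to 11 followed closely, between 370 and 297. The first 4 of them lay near or in K02D3.1, ZK899.6, Y41G9A.17 and F19H6.5. Member 8 was near gtr-1 (312), member 9 near xol-1 (302), member 10 near F55G7.5 (301) and member 11 near T27A8.7 (297). A gap then came before member 12, in an intron of the inward rectifier potassium channel gene irk-3, at 217. Member 12 had 123 in replicate 1 and 92.6 in replicate 2, below every one of members 1 to 11 in both. Member 13 (205) was upstream of sma-9, which encodes a Schnurri-like factor of the BMP-like body size pathway, member 14 (201) upstream of the Ste20-type kinase gene mig-15, and member 15 (196) in an intron of aak-2, which encodes a catalytic subunit of AMP-activated kinase.

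Replicate agreement was close to that of all peaks. Of the 370 members, 278 (75.1%, 70.4 to 79.5%) overlapped a peak among the 2602 of highest signal in each replicate, against 72% of all optimal peaks. The shares were 76.6% in X near, 70.1% in autosomal far and 71.3% in autosomal near peaks. A further 47 members were found in the top of replicate 1 only, 43 in that of replicate 2 only and 2 in neither. When all peaks of each replicate were used, every member overlapped a peak in each. The median log2 ratio of the signal in replicate 1 over that in replicate 2 was 0.21 among members, 0.16 in X near, 0.23 in autosomal far and 0.15 in autosomal near peaks. All of the first 100 members by signal were in the top of both replicates, as were 97 of the next 100 and 81 of the last 170. The optimal list was kept for reproducibility between these same replicates. All these overlaps with replicate peaks, in members and other sets, are therefore in part built in.

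**Figure D2:**
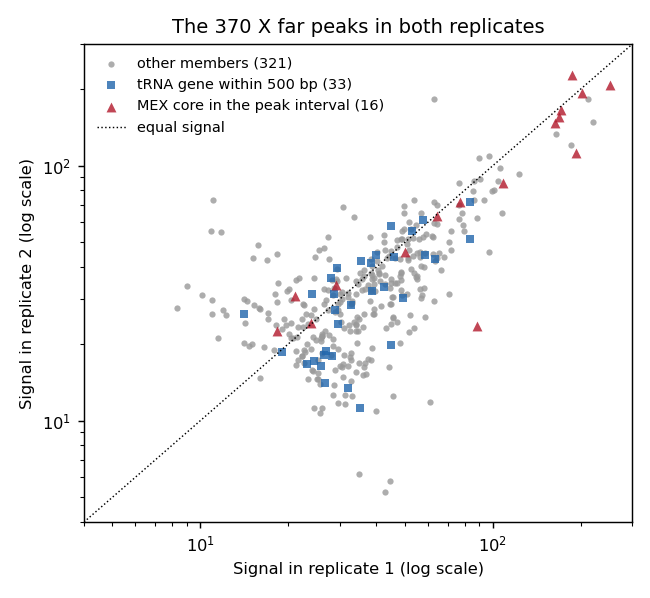
Signal of each of the 370 X far peaks in replicate 1 (x axis, log scale) and replicate 2 (y axis, log scale); triangles mark the 16 with the MEX core in the peak interval and squares the other 33 with a tRNA gene within 500 bp. Most points lie near the line of equal signal, and 7 of the triangles have a signal above 110 in both replicates.

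By the matched replicate values, a few members differed strongly between the replicates. A peak downstream of F55A4.3 had 42.7 in replicate 1 and 5.24 in replicate 2, one in a coding exon of nfki-1, an IkB-like gene, 44.7 and 5.82, and one in an intron of ZK470.2 35.0 and 6.15. In the other direction a peak upstream of F54E4.3 had 11.0 in replicate 1 and 73.2 in replicate 2, but that replicate 2 peak is also the match of member 42, whose summit is 202 bp away, and is not a value of its own. There were 4 such members for replicate 2 and 2 for replicate 1. Without a shared match, one in an intron of kin-2, the regulatory subunit gene of protein kinase A, had 10.9 in replicate 1 and 55.2 in replicate 2, and one upstream of dct-1, a BNIP3-like mitophagy gene, 11.7 and 55.1. For the peaks in ZK470.2, upstream of F54E4.3 and in kin-2, the low value is that of the overlapping peak with the nearest summit. Another peak, among the 2602 highest of that same replicate, also overlapped each of them. Their differences between replicates therefore depend on how peaks were matched. By signal the 6 members named so far ranked between 160 and 354 of the 370 members. The 3 members of lowest signal, in the gene of the channel localisation factor nlf-1, in the acetylcholinesterase gene ace-1 and upstream of ace-1, had 37.0 each. They stand at the signal at which the optimal list ends, and all 2602 optimal intervals are also in the list called on the pooled replicates, which holds 17322 more peaks of lower signal.

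Far peaks were denser on X than on any autosome. X had 31.6 far peaks per Mb of sequence outside the start windows, against 18.6 on the autosomes together and between 15.1 (V) and 21.1 (II) on single autosomes. The ratio of X to autosomes was 1.70 (1.50 to 1.92), and it was 1.75 in replicate 1 and 1.69 in replicate 2. Near peaks differed in the same direction, with 45.6 per Mb of window sequence on X against 31.0 on autosomes, a ratio of 1.47. On single autosomes near peaks ranged up to 44.9 per Mb (on I), so X near density was close to that of the densest autosome, while the far density of X was above that of each autosome. In the lower-signal peaks of the pooled list the far ratio was 1.16, with 194 per Mb on X and 166 per Mb on autosomes. How many copies of X the mixed-sex pool held, and how X was covered in the control, was not tested.

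**Figure D3:**
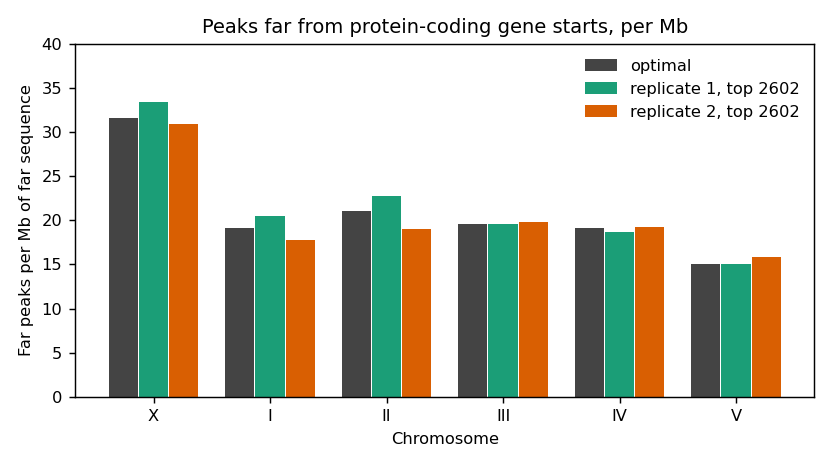
Far peaks per Mb of sequence outside the gene start windows (y axis) on each chromosome (x axis), in the optimal list and in the 2602 peaks of highest signal of each replicate. X stands at 31.6, 33.4 and 30.9 per Mb in the 3 lists, above all autosomes in each.

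The far class also made up more of the peaks on X. It held 57.5% (53.5 to 61.3%) of X peaks, where 66.1% of X sequence is far, against 46.2% (44.0 to 48.5%) of autosomal peaks, where 58.8% of sequence is far. Far peaks were thus under-represented relative to sequence on X as on autosomes. Within X the members were spread along the whole chromosome, with 123 in the left, 109 in the middle and 138 in the right of 3 parts of equal length, or 31.0, 29.0 and 34.7 per Mb of far sequence. Of the 50 members of highest signal, 11 were in the left, 16 in the middle and 23 in the right part. The median distance from a member to its nearest member was 6083 bp, and 38 members had another within 1000 bp. Member 9 and another summit 207 bp away, both upstream of xol-1, share an interval and are counted as 2 members.

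Members lay at a median of 3524 bp from the nearest protein-coding start, 110 of them at more than 5000 bp and 17 at more than 10000 bp, with a maximum of 24184 bp. Signals just outside and just inside the window edges overlapped. Upstream, members at 2034 bp (C53C7.3), 2035 bp (hbl-1, a hunchback-like gene of developmental timing) and 2050 bp (dyn-1, dynamin) had signals of 119, 62.1 and 44.9. X near peaks at 1981 bp (cah-3), 1956 bp (the glycogenin gene gyg-1) and 1951 bp (M02E1.1) had 47.5, 64.5 and 87.6. Downstream, members at 532 bp (F09B9.5), 561 bp (Y26E6A.2) and 579 bp (the alpha spectrin gene spc-1) had 52.8, 59.0 and 48.4. X near peaks at 500 bp (F35A5.8), 468 bp (F40B5.2) and 454 bp (sur-7) had 78.6, 69.3 and 46.6.

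Most members were intergenic or intronic. Of 370, 180 (48.6%, 43.4 to 53.9%) were between protein-coding genes, 162 (43.8%, 38.7 to 49.0%) in introns, 21 (5.68%) in coding exons and 7 (1.89%) in untranslated or other exon sequence. Far sequence on X is 36.7% intergenic, 37.4% intronic and 21.5% coding, so coding exons held fewer members than their share of bases. Autosomal far peaks were 41.4% intergenic, 53.3% intronic and 2.54% coding. Median signals of the members were 71.5 for intergenic, 62.7 for intronic, 50.3 for coding exon and 47.0 for untranslated peaks. The highest coding exon peak, in the polyketide synthase gene pks-1, had 186, with 108 in replicate 1 and 85.2 in replicate 2. The highest untranslated peak, in the nuclear receptor gene nhr-1, had 69.9, with 41.1 and 35.2.

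The intronic members fell in 119 genes, 87 with 1 member, 25 with 2 and 7 with 3 or more. The median length of the 119 genes was 7688 bp, against 2548 bp for the 2731 protein-coding genes on X. Only genes with intron sequence outside the start windows can hold an intronic member, and longer genes have more room for it. This difference is therefore no result about the members, and genes of matched length were not compared. The most members in a single gene were in lin-14, the heterochronic gene whose nuclear protein sets first-stage larval fates and which the lin-4 microRNA represses. Its 7 intronic members (lin-14 spans chrX:11465560-11485871 on ce11, plus strand) had signals of 173, 59.9, 41.3, 103, 57.5, 57.6 and 43.3 along the gene. All 7 were higher in replicate 1, for example 107 against 65.2 in replicate 2 for the first and 24.4 against 11.2 for the last. The innexin gene unc-9 had 4 members (78.2 to 115). The genes ivns-1 (56.5 to 113), nhr-40, a nuclear receptor gene (69.5 to 107), fox-1, an RNA-binding X signal element of sex determination (56.4 to 99.3), pkc-2, a protein kinase C gene (37.3 to 53.5), and scd-1 (39.3 to 47.8) had 3 each. Transcript starts inside such genes count as far here, since 1 start per gene was used, and 34.7% of the far peaks were intronic when the starts of all transcripts were used.

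The MEX core was rare at the summits. Searched on both strands within 50 bp of the summit, GCGCAGGG was in 9 of 370 members (2.43%, 1.12 to 4.57%), 5 of 274 X near peaks (1.82%), 0 of 905 autosomal far and 0 of 1053 autosomal near peaks, which allow shares of up to 0.331% and 0.285%. Of all X far windows of the same length, 44 of 115923 (0.0380%) held it, and 0.0270% of autosomal far windows did. By signal, 4 of these 9 members ranked 1 to 20, 1 each 21 to 50, 51 to 100 and 101 to 200, and 2 ranked 201 to 370. The share of far X peaks was 1.79% in the top list of replicate 1 and 2.49% in that of replicate 2. Of the X far peaks of the pooled list below the optimal threshold, 5 of 2267 (0.221%) held the core. The same letters in reverse order, GGGACGCG, were in 0 of 370 members and 4 autosomal far peaks.

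In the whole peak interval, a wider search made after the sequences were read, 16 members (4.32%) held the core. So did 8 X near (2.92%), 3 autosomal far (0.331%) and 2 autosomal near (0.190%) peaks. No background windows as long as the intervals were counted. The 16 lie in 15 intervals, since members 9 and 54 share one and both are counted. Of the members ranked 1 to 20, 8 did. Of ranks 21 to 50, 2 of 30 held the core, of ranks 51 to 100, 2 of 50, of ranks 101 to 200, 1 of 100, and of ranks 201 to 370, 3 of 170. The variant GCGAAGGG was picked from the highest members, so its count there supports nothing: the core or the variant was in 10 of the first 20, 2 of the next 30, 2 of the next 50, 3 of the next 100 and 5 of the last 170 members. Within 50 bp of the summit the variant was in 1.62% of members, 1.46% of X near, 0.221% of autosomal far and 0.380% of autosomal near peaks, against 0.0794% of X far windows. The share of members includes some that the variant was picked from, so it supports nothing either. Members 10 and 11 held neither. Both had the shorter letters CGCAGGG, a part of the core, within 50 bp of the summit. These letters were there in 2.97% of members, 2.92% of X near, 0.663% of autosomal far and 0.855% of autosomal near peaks, against 0.145% of X far windows. Peak length also differed, with 1 of the first 20 members having the most common length of 376 bp, against 339 of all 370.

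Counted from the side of the sequence, X holds 81 copies of the core and 27 (33.3%, 23.2 to 44.7%) were inside an optimal peak, against 6 of 233 (2.58%, 0.951 to 5.52%) on the autosomes. Of the 55 copies in far sequence of X, 20 (36.4%, 23.8 to 50.4%) were in an optimal peak, against 3 of 140 (2.14%) in autosomal far sequence. These counts are of copies, some of which share a peak. With 1 mismatch allowed the contrast between X and autosomes was smaller: 28 members (7.57%), 7.66% of X near, 4.86% of autosomal far and 7.31% of autosomal near peaks had a match, against 1.26% of X far windows.

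**Figure D4:**
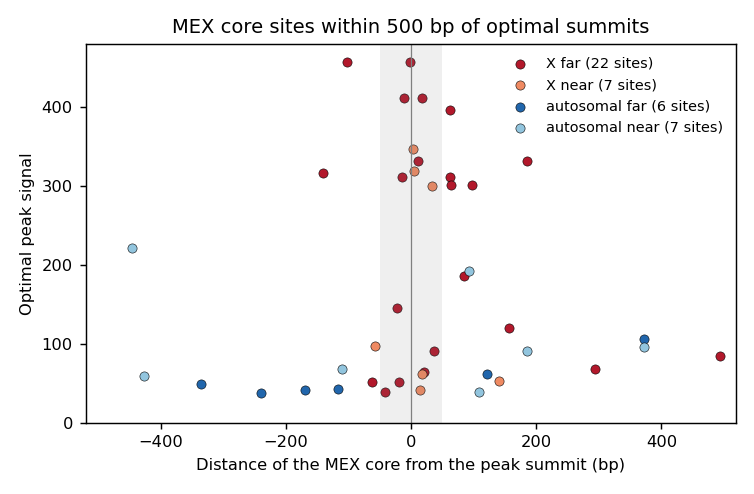
Distance of each copy of the MEX core from the nearest optimal summit (x axis, copies within 500 bp) and the signal of that peak (y axis), with the region within 50 bp shaded. Copies at peaks with a signal of 300 or more all belong to X far or X near peaks, and no autosomal copy falls in the shaded region.

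The forkhead core was present at few summits in every set. TAAACA, on either strand within 50 bp of the summit, was in 17 members (4.59%, 2.70 to 7.25%), 4.38% of X near, 4.97% of autosomal far and 4.56% of autosomal near peaks, against 8.95% of all X far windows. In the lower-signal X far peaks of the pooled list it was in 8.16%. None of the first 50 members by signal held it. The same letters in reverse order, ACAAAT, were also below the windows, at 9.73% of members against 13.7% of X far windows. The longer site GTAAACA went the other way, at 1.89% of members (0.764 to 3.86%) against 1.50% of X far windows, which lies within that interval. The member of highest signal with the core is shown as the counterpart of the sequences above, with the forkhead core, here TGTTTA on the plus strand, and a B box match, GTTCGANNC, in capitals, again 151 bases on ce11 from RefSeq.
Member 58, intron of him-4 (chrX:9743594-9743744): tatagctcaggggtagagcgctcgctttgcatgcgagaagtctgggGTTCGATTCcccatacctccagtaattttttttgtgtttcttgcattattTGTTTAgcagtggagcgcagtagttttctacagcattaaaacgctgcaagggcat

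Member 58 had a signal of 109, with 52.9 in replicate 1 and 55.5 in replicate 2, and lay 9 bp from a tRNA gene inside an intron of him-4, which encodes the extracellular matrix protein hemicentin.

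Members were richer in G and C than X sequence. The mean GC content within 50 bp of the summit was 43.7% (SD 7.50 over peaks, n = 370) in members, 47.9% in X near, 43.9% in autosomal far and 46.3% in autosomal near peaks, against 35.3% in X far windows. The GATA and homeodomain sites, both rich in A and T, were rarer at summits: TGATAA was in 3.51% of members against 9.66% of X far windows, and TAATTA in 1.62% against 5.16%. In X near, autosomal far and autosomal near peaks TGATAA was in 2.19%, 2.65% and 3.32%, and TAATTA in 1.09%, 1.33% and 1.80%. The GAGA repeat GAGAGAGA was in 4.32% of members, 4.01% of X near, 8.40% of autosomal far and 6.74% of autosomal near peaks, against 0.511% of X far windows. The E-box CACGTG was in 2.97% of members against 1.31% of X far windows. It was in 2.92% of X near, 2.54% of autosomal far and 1.99% of autosomal near peaks. Over all 8-letter words the 5 largest excesses in members, taken as a difference in percentage points and not as a ratio, were runs of A and G: AAAAAAGA (12.7% against 3.97% of X far windows), AAAAAGAA (12.4% against 3.86%), AAGAAGAA (9.19% against 1.79%), AAAAGAAG (8.65% against 1.65%) and AGAAGAAG (8.11% against 1.17%). Autosomal far peaks held these 5 words at 13.6%, 12.2%, 11.4%, 9.94% and 10.5%.

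**Figure D5:**
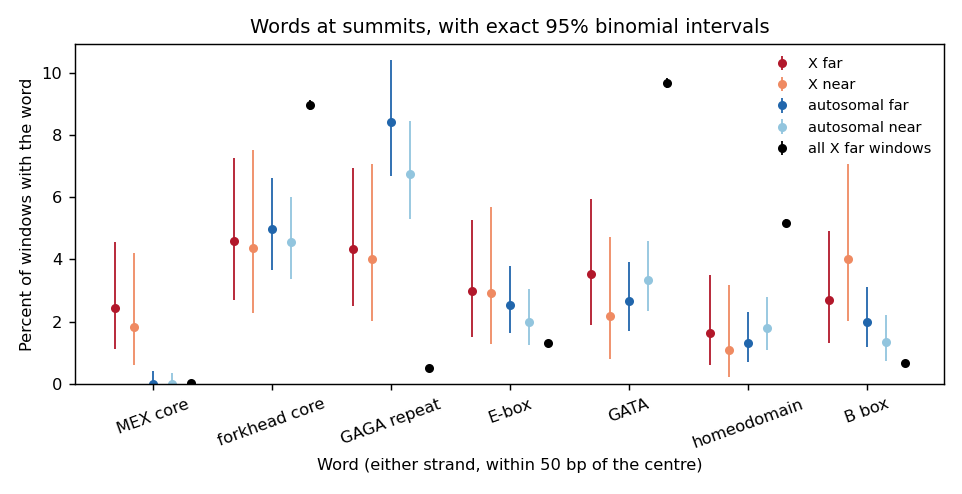
Percent of 101 bp summit windows that hold each word (y axis), for X far, X near, autosomal far and autosomal near peaks and for all X far windows, with exact 95% binomial intervals. The MEX core is at 2.43% and 1.82% on X and at 0 in both autosomal sets, while the forkhead core is between 4.38% and 4.97% in every set of peaks and at 8.95% in X far windows.

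Transfer RNA genes were often beside members. Of 370 members, 35 (9.46%, 6.68 to 12.9%) had a summit within 500 bp of a tRNA gene, 16 of them inside one, against 7.30% of X near, 2.21% of autosomal far and 1.23% of autosomal near peaks. X holds 276 of the 612 tRNA genes, and 1.32% of X far sequence and 0.397% of autosomal far sequence is that close to one. In the top list of replicate 1 the share was 8.95% and in that of replicate 2 8.01%. Seen from the genes, 40 of 177 far tRNA genes on X (22.6%, 16.7 to 29.5%) had at least 1 optimal summit that close, against 21 of 197 (10.7%, 6.72 to 15.8%) on autosomes. Near tRNA genes had much the same shares, 22 of 99 (22.2%) on X and 15 of 139 (10.8%) on autosomes. In the whole pooled list the shares of far tRNA genes were 46.9% and 43.1%. In the lower-signal X far peaks 1.99% lay that close.

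Signals beside tRNA genes were ordinary for members, with a median of 65.9. After member 9, high signals were found in an intron of ZK1193.2 (156, with 83.2 in replicate 1 and 72.1 in replicate 2), in an intron of sulp-3 (135, with 83.7 and 51.8) and upstream of C53C7.3 (119, with 57.6 and 61.1). They spread over the ranks, with 1 in the first 20 members, 3 in the next 30, 6 in the next 50, 10 in the next 100 and 15 in the last 170. The B box GTTCGANNC was within 50 bp of the summit in 2.70% of members, 4.01% of X near, 1.99% of autosomal far and 1.33% of autosomal near peaks, against 0.667% of X far windows. Near-identical tRNA genes share sequence, and how reads from such copies were placed is not given in the sources used here. In 14 members (3.78%) more than 50% of the 36-letter words around the summit occur elsewhere in the genome, against 1.55% of autosomal far peaks.

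Other small RNA genes were beside few members, as in X far sequence. None of 370 had a small nucleolar RNA gene within 500 bp and none a small nuclear RNA gene, which allows up to 0.811% for each, and X holds 33 and 3 of these genes. Only 0.184% and 0.0188% of X far sequence is that close to one, so a count of 0 is no result about the members. A single member was that close to a microRNA gene, in an intron of F09A5.3, with a signal of 146 (85.3 in replicate 1 and 79.2 in replicate 2), or 0.270% of members against 0.385% of X far sequence. There were 2 members (0.541%) within 500 bp of a piRNA gene, against 0.897% of X far sequence. Genes of the annotation's general non-coding class were within 500 bp of 110 members (29.7%, 25.1 to 34.7%), 28.8% of X near, 21.4% of autosomal far and 17.3% of autosomal near peaks, against 11.4% of X far sequence.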

How the data were processed

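FKH-10 ChIP-seq of 2 biological replicates was analysed from the deposited ce11 peak lists: 1 per replicate (28842 and 28896 peaks), 1 on pooled replicates (19924) and the optimal set. The signal per peak is the value the authors deposited, on a scale that is not given. The deposited −log10 q-value is capped and stands at its top value in 288 members (77.8%). Per the labels' text files, peaks were called from alignments and a control. The sources used here do not name the aligner or peak caller. Read depth is unknown, so no depth-based interval is given. Lists on ce10 were not used.

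Positions are 1-based. Genes were from Ensembl release 115 (WBcel235, the coordinates of ce11), and sequence from RefSeq. The replicate value of a peak is that of an overlapping peak (at least 1 bp) among all peaks of that replicate. Where several overlapped, the one with the nearest summit was taken. Only the share found in the top of each replicate used its 2602 peaks of highest signal. Words were searched on both strands in 101 bp windows; background windows were all adjoining, non-overlapping windows of that length outside the start windows. Position classes were read at the summit. Copies of the core were assigned by their centre.

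The members, words and lists were chosen with earlier results of these data known, and GCGAAGGG, ATCCACAG and TTGCCC after the sequences were read. Named items are the 15 members of highest signal, the 3 of lowest, the 3 farthest to each side in replicate ratio, the 3 on either side of each window edge, the highest by class and beside small RNA genes, and genes with 3 or more intronic members. Member 58 is the highest with the forkhead core; the peaks in ZK1193.2 and sulp-3 were chosen after their values were seen. A count of 0 allows up to 3 counts of the total, and such limits and intervals cover counting only. Alternatives covered each replicate alone, the higher-signal part of the set, other start windows, distances, words and overlap rules. The functions were tested on simulated data with planted positions and words. Python 3.11.15, numpy 2.4.6, pandas 2.3.3, scipy 1.17.1 and matplotlib 3.10.9 were used.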

Additional observations from a re-analysis of the deposited data

How the results depend on the processing

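Of 89 recomputed values, 65 stayed within a range set around the value as reported. These ranges were not all binomial intervals: those of the number of members, the median signal and the GC content were not. For the number of members (370) the range was a wide span of 247 to 555, not an interval from counting. The 6 of 8 recomputed numbers of members inside it are part of the 65 and say little about stability. Taking each replicate's 2602 highest peaks alone moved the median signal to between 32.0 and 34.8, since single lists carry lower signals than the pooled one, and GC to between 42.7 and 43.8%, while the density ratio stayed between 1.69 and 1.75. The higher-signal part of the set (1301 peaks) left 208 members, with a density ratio of 1.97, a median signal of 87.5, 98.1% in the top of both replicates and a GC of 44.6%. With the starts of all transcripts, 48.8% of X peaks were far and 34.7% of those intronic. Start windows of 1000 and 200 bp gave 69.9% far and 38.4% intronic, and windows of 3000 and 1000 bp gave 48.0% far. Starts of every gene type except piRNA left 183 members (28.4% of X peaks), a density ratio of 1.47 and 0% beside tRNA genes, which such windows remove by construction. Summit windows of 25 and 100 bp to each side gave the forkhead core in 2.43% and 9.19%, and 100 bp gave a GC of 42.9%. The word GTAAACA was in 1.89%, which turns the direction against X far windows (1.50%; TAAACA 4.59% against 8.95%). With 1 mismatch in the MEX core 7.57% had it, which turns the order against X near peaks (7.66%; without mismatch 2.43% against 1.82%). Members in the top of both replicates were 70.0% with summits within 100 bp and 100% with all peaks of each replicate. Chosen after seeing the data, the density ratio was 1.57 without peaks beside tRNA genes, 1.63 without peaks that hold the core and 1.69 with 1 summit per interval. No paired analysis was possible because there is 1 group and no result comes from a test. Without read counts, the depth behind a signal value is unknown, and the 9 members with the core at the summit limit the precision of that share.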

Other observations

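Other letters shared by the highest members were counted after their sequences had been read, so these counts describe and support nothing. ATCCACAG, on either strand, was in the peak interval of 5 of the first 20 members and of 3 of the last 170. Within 50 bp of the summit it was in 1.35% of members, 0 of 274 X near, 0 of 905 autosomal far and 1 of 1053 autosomal near peaks, against 0.170% of X far windows. TTGCCC was in the interval of 7 of the first 20 members, and within 50 bp of the summit in 6.22% of members, 6.20% of X near, 2.87% of autosomal far and 3.61% of autosomal near peaks, against 2.47% of X far windows.

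Among the 60 members of highest signal the 8-letter words with the largest excess over X far windows were CTTTTCTC (13.3% against 0.940%), CCTGCGCG (11.7% against 0.0500%), CGCAGGGA (6 of 60, against 0.0423%), CTGCGCGA (6 of 60, against 0.0811%) and GAGAAAGA (6 of 60, against 0.792%). Of these, CCTGCGCG, CGCAGGGA and CTGCGCGA overlap the MEX core. X near peaks held these 3 in 1.82%, 1.09% and 1.82% of windows, and autosomal far peaks in 0.221%, 0.221% and 0.110%. CTTTTCTC and GAGAAAGA were in 3.28% and 3.65% of X near and in 4.42% and 5.75% of autosomal far peaks. All 5 words were picked from these 60 members, so their shares there support nothing.

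By 1 Mb of X the members ranged from 8.43 per Mb of far sequence in the first 1 Mb, which still held member 8 (312), to 42.0 per Mb between 13 and 14 Mb.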
